A study of Mus musculus with 15 samples.

Results

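The Fc gamma receptor and C1q genes of mouse bone marrow-derived macrophages (BMDMs) were examined for called regions of the histone variant H3.3 and of a pair of histone marks. The 8 genes, Fcgr1, Fcgr2b, Fcgr3, Fcgr4, Fcer1g, C1qa, C1qb and C1qc, were taken by name from the GENCODE M21 annotation (mm10), which held 21938 protein-coding genes on the chromosomes used. Each gene was read over a window of its annotated body with 5 kb added upstream, and the measure was the length of that window covered by regions. Chromatin had been profiled by CUT&RUN, in which a nuclease tethered to an antibody cuts out the DNA around its target for sequencing. The series held 15 samples, of which 10 libraries with region lists were used, 2 for each group, and 5 IgG controls without lists. H3.3-HA libraries came from mice with an HA tag knocked in at H3f3b, one of the genes that encode H3.3. Acetylation of histone H3 at lysine 27 (H3K27ac), a mark of active promoters and enhancers, and trimethylation at lysine 36 (H3K36me3), a mark laid down over transcribed gene bodies, were profiled in WT and cKO cells. WT cells carried floxed alleles of both H3.3 genes (H3f3a fl/fl, H3f3b fl/fl) without Cre, and cKO cells carried the same floxed alleles with LysM-cre on both alleles. LysM-cre is expressed from the Lyz2 locus and acts in myeloid cells, and the study describes the deletion of H3f3b as variable between cKO samples. All mice were young adults on a C57BL/6 background, and bone marrow cells of all groups were cultured for 6 to 8 days in medium with 20% L929-conditioned medium. The libraries of a group are labelled biological replicates, but the labels do not tie them to animals, so p-values measure only the spread between these libraries.

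Fc gamma receptors bind the constant part of IgG and let macrophages engulf antibody-coated particles. Activating receptors signal through the shared gamma chain, which carries a tyrosine-based activation motif, whereas Fcgr2b carries an inhibitory motif in its own tail. C1q, assembled from 3 kinds of chain, is the recognition subunit of the classical complement pathway. It binds IgG in immune complexes, and macrophages are a main source of it.

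Across the whole series the libraries held 5365319 to 29988098 tags, and 11.8 to 50.2% of tags lay in regions. cKO H3K36me3 replicate 1 stood apart, with 19.3% of tags in regions and 90.7 Mb covered, while the other H3K36me3 libraries covered 163 to 170 Mb. The H3K27ac lists covered 89.6 and 74.8 Mb in WT and 46.2 and 62 Mb in cKO, and cKO replicate 1, with 11.8% of tags in regions, was the lowest. The study reported the deletion in cKO BMDMs by PCR, qRT-PCR, RNA-seq and western blot. The region lists do not show it, and cover over a whole gene window is not a measure of it. H3K27ac regions covered 58.3 and 52.3% of the window of H3f3b in the WT libraries and 65.2 and 85.5% in the cKO libraries, and 11.9 and 11.9% of that of H3f3a in WT and 22.4 and 19.7% in cKO. WT and cKO therefore refer to libraries as labelled. Of 10 macrophage markers, 6 had H3K27ac at the promoter in both WT libraries and 8 in both cKO libraries. None of 5 T cell, 5 mast cell and 5 fibroblast markers had it in any H3K27ac library. Of 5 markers each, Ms4a1 of B cells and Xcr1 of dendritic cells had it in both libraries of both genotypes, and Elane of neutrophils and Clec9a of dendritic cells in both cKO libraries. The part of these cell types in the results below was not tested.

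Of the Fc receptor genes, 4 lie on chromosome 1. They are Fcgr2b (170958617 to 170976547, minus strand), Fcgr4 (171018920 to 171029761, plus strand), Fcgr3 (171051174 to 171064935, minus strand) and Fcer1g (171229572 to 171234365, minus strand). Fcgr1 lies on chromosome 3 (96282909 to 96293969, minus strand). The C1q genes form a cluster on the minus strand of chromosome 4, with C1qb at 136880129 to 136886187, C1qc at 136889804 to 136893065 and C1qa at 136895917 to 136898803. The upstream 5 kb of C1qb reach into C1qc and those of C1qc into C1qa, so neighbouring C1q windows share part of their values. Joined without double counting, the windows span 107 kb, 83.4 kb at Fc receptor genes and 23.7 kb at the C1q cluster. Distances of regions below are from the start of the main transcript. For Fcgr3 that start lies inside the annotated gene, because a further transcript begins upstream. Fcgr2b, Fcgr3 and Fcgr4 share stretches of similar sequence, and how short reads that match more than 1 of them were placed was not tested.

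Promoter sequences were matched by symbol in RefSeq tables (GRCm38.p6, the same build as mm10) for 7 of the 8 genes, all but C1qa. Promoter and motif positions count from the RefSeq start, not from the main transcript start used for regions. These starts coincide at Fcgr1 and Fcgr3 and differ at Fcgr2b, Fcgr4, Fcer1g, C1qb and C1qc. Of the 300-bp promoters, from 250 bases before to 50 bases after the start, 5 of 7 held the core GAGGAA bound by PU.1, the myeloid master transcription factor, on either strand. They were Fcgr1, Fcgr3, Fcgr4, C1qb and C1qc. The core was present in 27.4% of 21263 protein-coding promoters of the same length. A gamma-activated site (TTCNNNGAA, a STAT site, in 7.69% of promoters) was found in Fcgr1, from -109 to -101. An interferon-stimulated response element (GAAANNGAA, in 8.15%) was found in Fcgr4, from -73 to -65, and paired C/EBP half-sites (TTGCNNAA, in 10.2%) in Fcgr3, from -28 to -21. Each of these motifs was found in 1 of 7 promoters, and both strands were searched. The motifs did not overlap each other in these promoters. A match describes letters only and is no evidence of binding. The 250 bases upstream of 5 genes whose starts carry the regions described below are shown 5′ to 3′ on the strand of the gene, with every motif match in capitals. They lie at chr3:96293970-96294219 (minus strand), chr1:171059404-171059653 (minus strand), chr1:171018676-171018925 (plus strand), chr1:171234350-171234599 (minus strand) and chr4:136886201-136886450 (minus strand). Fcer1g and Fcgr2b held none of the motifs.
Fcgr1 promoter: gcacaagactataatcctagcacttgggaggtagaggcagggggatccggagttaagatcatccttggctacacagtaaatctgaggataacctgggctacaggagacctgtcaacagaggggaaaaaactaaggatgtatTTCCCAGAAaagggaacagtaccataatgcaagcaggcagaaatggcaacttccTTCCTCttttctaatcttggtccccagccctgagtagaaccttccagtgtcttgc
Fcgr3 promoter: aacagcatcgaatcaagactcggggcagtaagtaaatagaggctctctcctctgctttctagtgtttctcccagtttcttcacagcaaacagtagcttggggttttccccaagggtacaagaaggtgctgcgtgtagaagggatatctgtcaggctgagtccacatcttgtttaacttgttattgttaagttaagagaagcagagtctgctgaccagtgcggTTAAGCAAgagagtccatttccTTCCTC
Fcgr4 promoter: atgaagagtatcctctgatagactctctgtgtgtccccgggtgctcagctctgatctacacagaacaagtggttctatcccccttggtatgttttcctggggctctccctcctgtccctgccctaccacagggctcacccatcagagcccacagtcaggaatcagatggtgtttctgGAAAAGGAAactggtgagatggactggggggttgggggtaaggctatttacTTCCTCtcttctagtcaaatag
Fcer1g promoter: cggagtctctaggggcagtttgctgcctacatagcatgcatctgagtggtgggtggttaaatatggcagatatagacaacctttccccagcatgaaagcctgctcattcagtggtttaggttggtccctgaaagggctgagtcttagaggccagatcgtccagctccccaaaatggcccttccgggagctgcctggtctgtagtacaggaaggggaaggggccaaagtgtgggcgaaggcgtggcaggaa
C1qb promoter: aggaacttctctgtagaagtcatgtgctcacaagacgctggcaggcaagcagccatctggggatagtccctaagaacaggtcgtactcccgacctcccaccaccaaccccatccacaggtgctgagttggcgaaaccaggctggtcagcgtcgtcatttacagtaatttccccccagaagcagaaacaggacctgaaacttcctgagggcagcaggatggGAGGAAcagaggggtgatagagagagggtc

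H3.3-HA regions lay in the window of every one of these genes. All 8 had a region in both H3.3-HA replicates, against 44.2% of all protein-coding genes (9688 of 21938). Within the gene body alone the number was 6, since the replicate 1 regions of C1qa and C1qc lay wholly upstream, and with regions of at least 1 kb it was 7. Fcer1g, the shared gamma chain, had the widest coverage, 45.8 and 74.1% of its window in replicates 1 and 2 (60% ± 20, SD, n = 2). C1qb followed with 34.2 and 64.6% (49.4% ± 21.5). Next came Fcgr1, the high-affinity IgG receptor, with 26.9 and 53.3% (40.1% ± 18.7). These genes overlapped in their values over both libraries, although each library alone gave the same order. Fcgr3, a low-affinity activating receptor, was covered over 35.8 and 43% (39.4% ± 5.11). C1qc was covered over 25.7 and 48.9% (37.3% ± 16.4), and the inhibitory receptor Fcgr2b over 35.4 and 33.4% (34.4% ± 1.36). Down to Fcgr2b, neighbours in this order had overlapping values. The libraries of Fcgr4, an activating receptor for IgG2 subclasses, lay below both of Fcgr2b, at 18.5 and 22.5% (20.5% ± 2.81). C1qa lay below both of Fcgr4, at 8.03 and 14.1% (11.1% ± 4.33). Even C1qa exceeded 77.5 and 81.4% of protein-coding genes in the respective libraries, and Fcer1g exceeded 99.5 and 99.8%.

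The H3.3-HA regions differed in their place within the genes. At Fcgr1 a region spanned the start in both replicates, from -640 to 1125 bp and from -695 to 670 bp, and a further stretch lay over the 3′ part of the gene. At Fcgr4 regions ended at 1178 and 1222 bp, and the rest of the gene body had none. At C1qb the regions stopped just upstream of the start, at -159 and -150 bp, and began again in the body. The start base itself was covered in both H3.3-HA replicates at 4 genes (Fcgr1, Fcgr2b, Fcgr4 and Fcer1g) and in either replicate at 6. It was covered in neither at C1qa and C1qb. No share over all coding genes was taken for the start base.

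H3K27ac regions lay at or next to the starts of all 5 Fc receptor genes in both genotypes, with further regions inside Fcgr2b and Fcgr3. Over all 8 genes, 5 had both cKO libraries below both WT libraries in covered length (Fcgr2b, Fcgr3, C1qa, C1qb and C1qc), against 38.2% of the 12767 coding genes with an H3K27ac region in any of the 4 libraries. Only Fcer1g had both cKO libraries above, against 17.4%. The median difference (cKO minus WT) was -902.2 bp over the 8 genes and -359.5 bp over all genes tested. Both cKO lists cover less of the genome, and this order turns with scaling. When each library was scaled to its covered length over all gene windows, 2 of the 8 genes lay above (Fcgr4 and Fcer1g, against 37.2% of genes) and 1 below (C1qa, against 23.1%). With 2 against 2 libraries the two-sided exact permutation test cannot give a p below 0.333, so no gene could be called by a test.

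At Fcgr2b, H3K27ac regions covered 5.17 and 5.47 kb in WT and 3.93 and 4.1 kb in cKO, or 23.2% ± 0.95 and 17.5% ± 0.515 of the window (SD, n = 2 each, exact permutation p = 0.333). The groups did not overlap, and the gap was wider than the spread of either pair. Scaled, the values were 3.93 and 5.03 kb in WT and 5.78 and 4.49 kb in cKO, which overlapped with the direction turned. Part of the unscaled difference was an intronic region from 13508 to 14257 bp, of 660 and 682 bp in the WT libraries, with no region in cKO. At Fcgr3 the lengths were 6.82 and 5.18 kb in WT and 3.41 and 4.32 kb in cKO (32% ± 6.17 and 20.6% ± 3.44 of the window, SD, n = 2 each, exact permutation p = 0.333). The region over the Fcgr3 start reached to -1821 and -1591 bp upstream in WT and to -949 and -962 bp in cKO. Scaled, the Fcgr3 values overlapped and differed by -0.0972 kb.

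At Fcgr1 the lengths were 2.45 and 2.12 kb in WT and 0.963 and 3.35 kb in cKO, with the WT pair inside the cKO pair. The region of cKO replicate 1 began at 251 bp and left the start base uncovered, whereas that of cKO replicate 2 was the widest of the 4. At Fcgr4 the lengths were 3.95 and 3.75 kb in WT and 2.91 and 3.92 kb in cKO, and the values overlapped (exact permutation p = 0.667). Every H3K27ac library covered the whole stretch from 1000 bp before to 100 bp after the Fcgr4 start. At Fcer1g the cKO libraries lay above WT. Its lengths were 5.89 and 4.86 kb in WT and 6.17 and 6.35 kb in cKO (54.9% ± 7.41 and 63.9% ± 1.3 of the window, SD, n = 2 each, exact permutation p = 0.333). In both cKO libraries a single region ran from -2397 or -2334 bp to 3772 or 4015 bp, while WT began at -1784 and -1760 bp. With a further 5 kb downstream in the window the Fcer1g difference turned to -1183.5 bp. WT replicate 1 had a region of 4362 bp across the gene end. With the gene body only, the values overlapped (exact permutation p = 1).

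**Figure D1:**
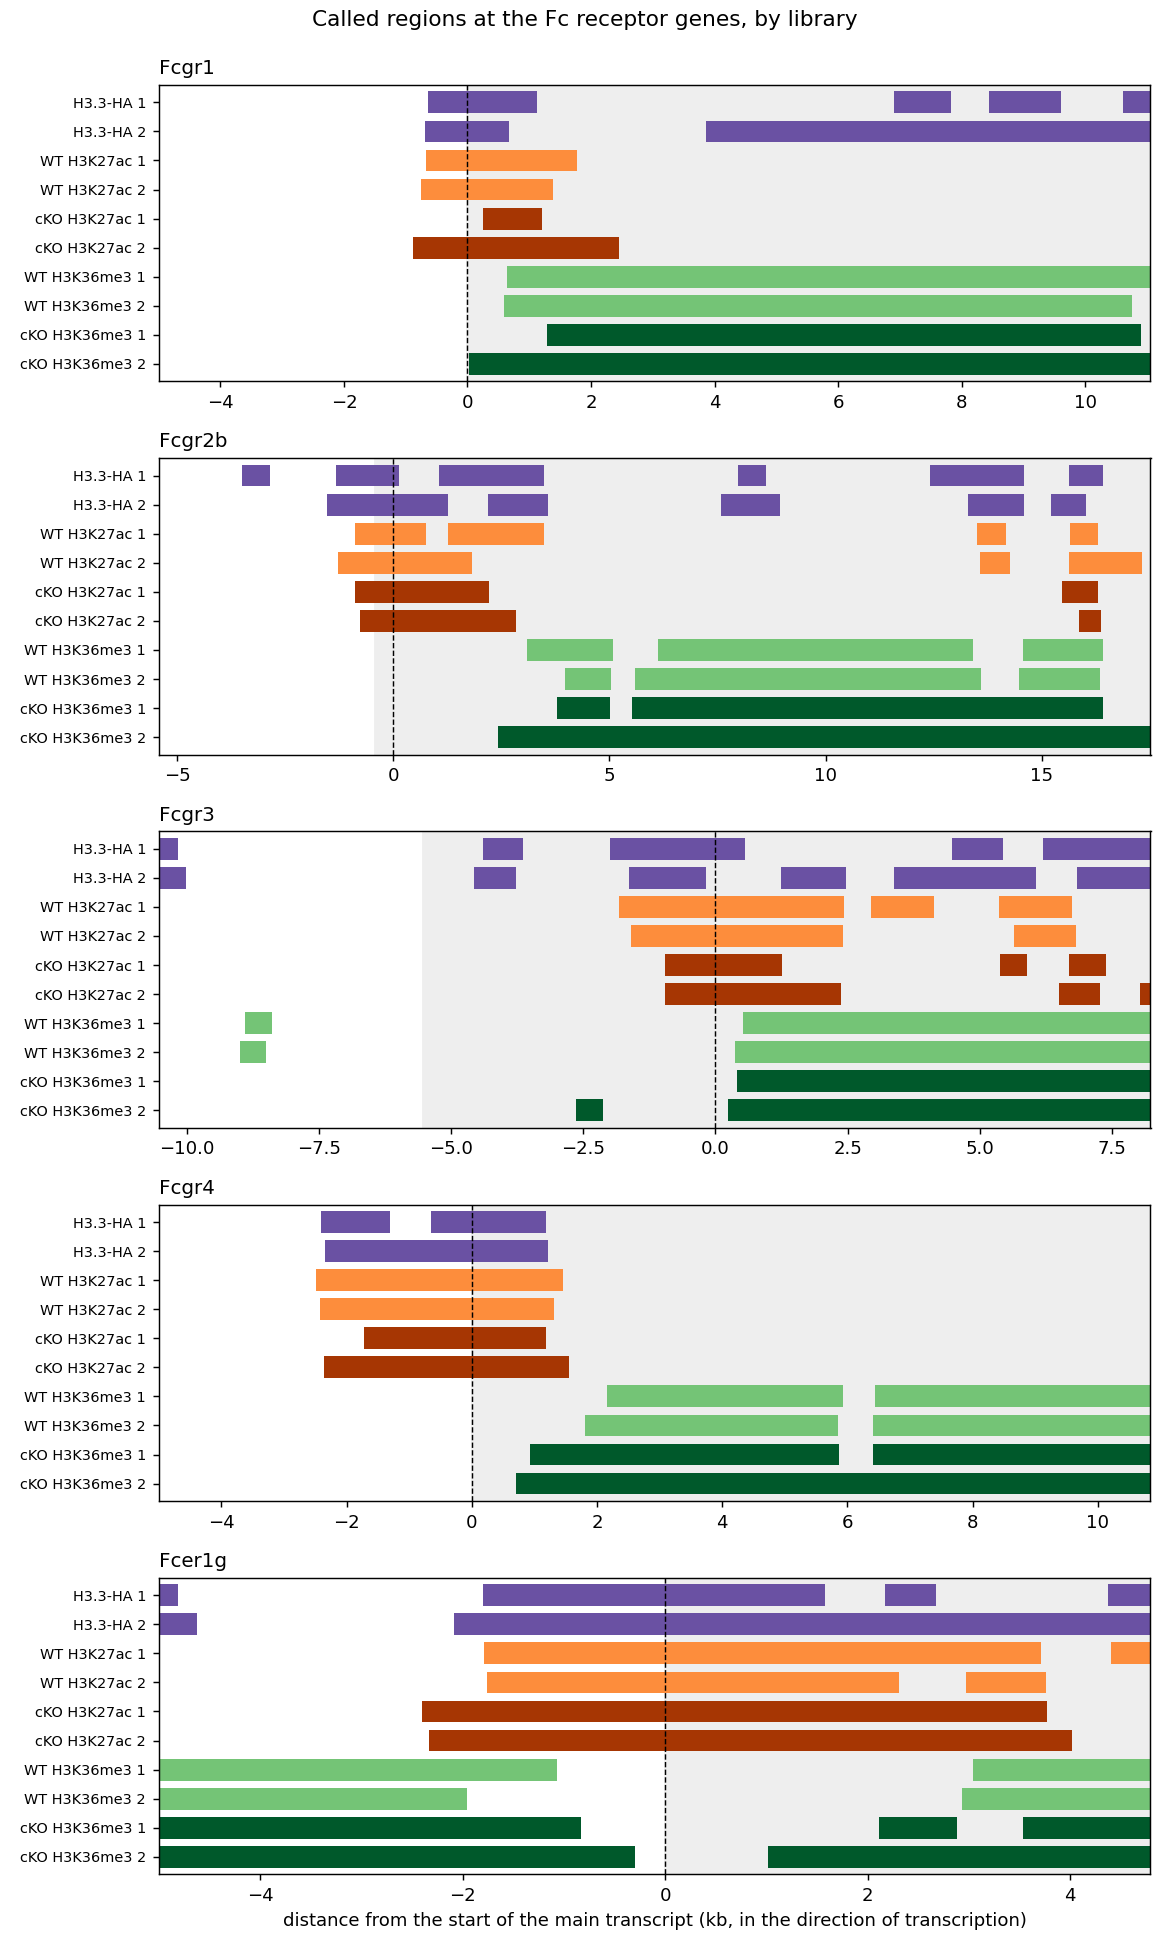
Called regions (bars, cut at the window) in the 10 libraries at the 5 Fc receptor genes against the distance from the start of the main transcript (kb). Grey marks the gene body and the dashed line the start. H3K27ac sits at the starts and H3K36me3 over the bodies, and at Fcgr4 and Fcer1g both cKO H3K36me3 libraries begin nearer the start than both WT libraries.

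At the C1q cluster H3K27ac covered less in both cKO libraries before scaling, and the cKO libraries differed from each other. Both WT libraries carried H3K27ac over the C1qc body and the C1qb start, 10.6 and 8.7 kb over the whole cluster, and cKO replicate 1 carried 6.52 kb. cKO replicate 2 had no H3K27ac region anywhere in the 23.7 kb of the cluster, with the nearest regions 198 and 127 kb away on either side. The flanks were sparse in the other libraries too. Their nearest regions lay 71.7 and 102 kb away in WT replicate 1, 198 and 101 kb in WT replicate 2 and 38.5 and 415 kb in cKO replicate 1. Mean H3K27ac cover of the cluster was 9.63 ± 1.31 kb in WT and 3.26 ± 4.61 kb in cKO (SD, n = 2 each). The cKO pair lay as far apart as the genotypes did. A listed absence means that no stretch passed the caller's thresholds, not that the mark was at 0.

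C1qb, which encodes the B chain, had H3K27ac over 6.96 and 6.93 kb in WT (62.8% ± 0.211 of the window), 4.92 kb in cKO replicate 1 and 0 in cKO replicate 2 (22.2% ± 31.4, SD, n = 2 each, exact permutation p = 0.333). In WT that exceeded 99.1 and 99.4% of coding genes. C1qc, which encodes the C chain, had 4.13 and 3.07 kb in WT, 2.67 kb in cKO replicate 1 and 0 in cKO replicate 2. C1qb and C1qc had regions in 3 libraries and none in cKO replicate 2. This pattern, picked after the data were seen, was met by 2.61% of the 8897 genes with H3K27ac in those 3 libraries. A merged region spans both genes, so they are not separate cases of it. C1qa, which encodes the A chain, had only a region of 501 bp in each WT library, from 658 to 1158 bp and from 656 to 1156 bp inside the gene, and none in either cKO library. 501 bp is the smallest region that 9 of the 10 lists hold, and with regions of at least 1 kb, or lists of equal number, no difference remained at C1qa. Without cKO replicate 2 the difference fell in size from -4486.5 to -2027.5 bp at C1qb and from -2269 to -935 bp at C1qc. Scaled, cKO replicate 1 lay above both WT libraries at C1qb (7.22 against 5.29 and 6.36 kb) and at C1qc (3.92 against 3.14 and 2.82 kb), so on that scale the lower cKO mean at these genes rests on replicate 2.

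**Figure D2:**
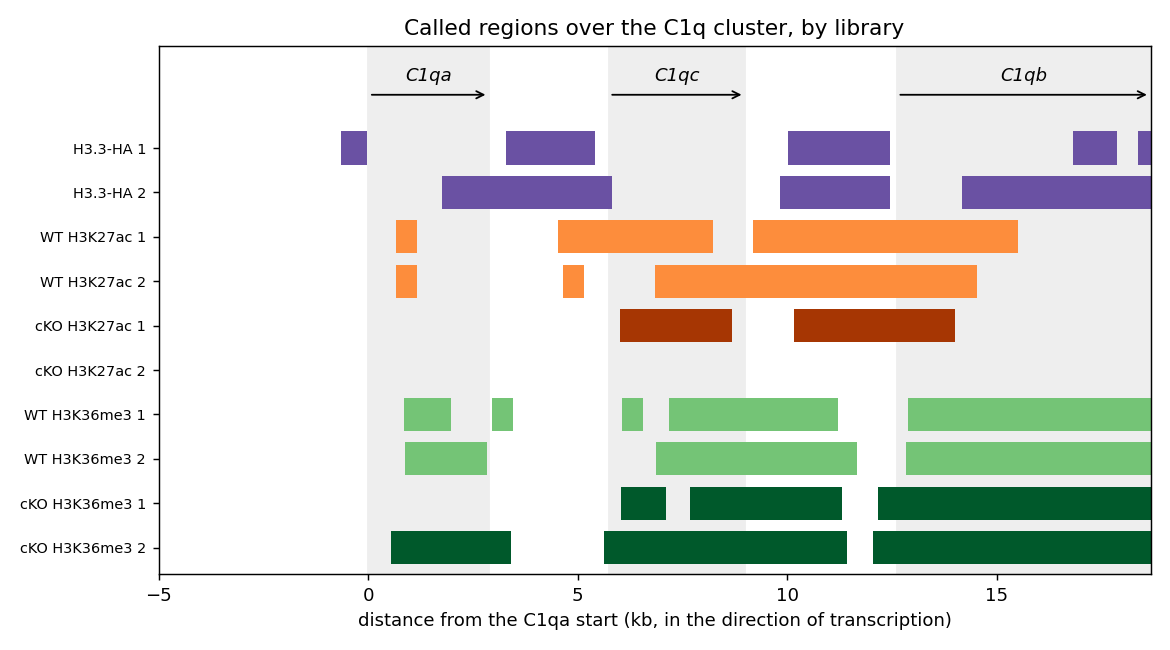
Called regions (bars) of the 10 libraries over the C1q cluster against the distance from the C1qa start (kb, in the direction of transcription). Grey bands and arrows mark the genes. cKO H3K27ac replicate 2 has no region, while cKO H3K36me3 replicate 2 covers 15.3 kb. Nothing ties libraries of the same number to the same cells.

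Merged over the 4 H3K27ac libraries, the windows held 13 regions, of which 8 were present in all 4 libraries. Gained regions, present in both cKO and neither WT library, numbered 0, and 2 were lost, in the reverse sense. They were the intronic region of Fcgr2b and that of C1qa, which also lies in the window of C1qc. So 3 genes had a lost region and 0 a gained region, against 37.3 and 17.3% of all genes tested.

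H3K36me3 covered more of Fcgr2b, Fcgr4, Fcer1g and C1qb in both cKO libraries than in both WT libraries, and less at no gene in both. Thus 4 of the 8 genes had both cKO libraries above both WT libraries, against 7.85% of the 11975 coding genes with an H3K36me3 region in any of the 4 libraries. None had both below, against 37.7%. The median difference was 427.8 bp over the 8 genes and -1300 bp over all genes tested. Over the joined windows, H3K36me3 covered 55.6 and 55.4 kb in WT and 56.3 and 68.5 kb in cKO (55.5 ± 0.0976 and 62.4 ± 8.6 kb, SD, n = 2 each). The cKO library that stands apart covered as much of these genes as WT did, although it covered 90.7 Mb of the genome against 164 and 170 Mb in WT. Most of the rise in the mean came from cKO replicate 2. Without it the difference was 834 bp, against 6917.5 bp with both.

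At Fcgr2b, H3K36me3 covered 11.1 and 10.9 kb in WT and 12.1 and 15.1 kb in cKO (48.2% ± 0.651 and 59.3% ± 9.19 of the window, SD, n = 2 each, exact permutation p = 0.333). The 3 separate WT regions were 2 in cKO replicate 1 and a single one of 15993 bp in cKO replicate 2. At Fcgr4 the lengths were 8.18 and 8.48 kb in WT and 9.39 and 10.1 kb in cKO (52.6% ± 1.35 and 61.6% ± 3.31, SD, n = 2 each, exact permutation p = 0.333). Here the cKO libraries lay close together and clear of WT. At Fcer1g they were 5.69 and 4.91 kb in WT and 6.21 and 8.49 kb in cKO (54.1% ± 5.65 and 75% ± 16.5, SD, n = 2 each, exact permutation p = 0.333). With regions of at least 1 kb the Fcer1g values overlapped (exact permutation p = 0.667), and 3 genes lay above instead of 4. Part of that length lay upstream of the Fcer1g start, in regions that ended at -1064 and -1958 bp in WT and at -826 and -294 bp in cKO. At C1qb they were 9.38 and 9.88 kb in WT and 10.1 and 10.4 kb in cKO (87% ± 3.19 and 93% ± 2.01, SD, n = 2 each, exact permutation p = 0.333).

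The other 4 genes split with the cKO library. Fcgr1 had 10.4 and 10.2 kb in WT and 9.62 and 11 kb in cKO. Fcgr3 had 8.21 and 8.35 kb in WT and 7.82 and 8.5 kb in cKO, and C1qc had 3.94 and 4.1 kb in WT and 2.39 and 6.03 kb in cKO. C1qa had 1.11 and 1.96 kb in WT, none in cKO replicate 1 and 2.33 kb in cKO replicate 2. At each of these genes cKO replicate 1 lay below and cKO replicate 2 above both WT libraries. Thus cKO replicate 1 alone lay above both WT libraries at 4 genes and below at 4, against 8.58 and 77.9% of all genes. cKO replicate 2 lay above at 8 and below at 0, against 41.3 and 38%. Scaled to the covered length over all gene windows, 7 of the 8 genes lay above (all but C1qa) and 0 below, against 28.8 and 29.3% of genes. Scaled values of cKO replicate 1 exceeded the window at C1qb (16.4 kb in 11.1 kb) and Fcer1g (10 kb in 9.79 kb). No region list can cover more than the window, so the scaled order is unsafe at widely covered genes. The C1q windows overlap, so the C1q genes are not independent of each other.

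**Figure D3:**
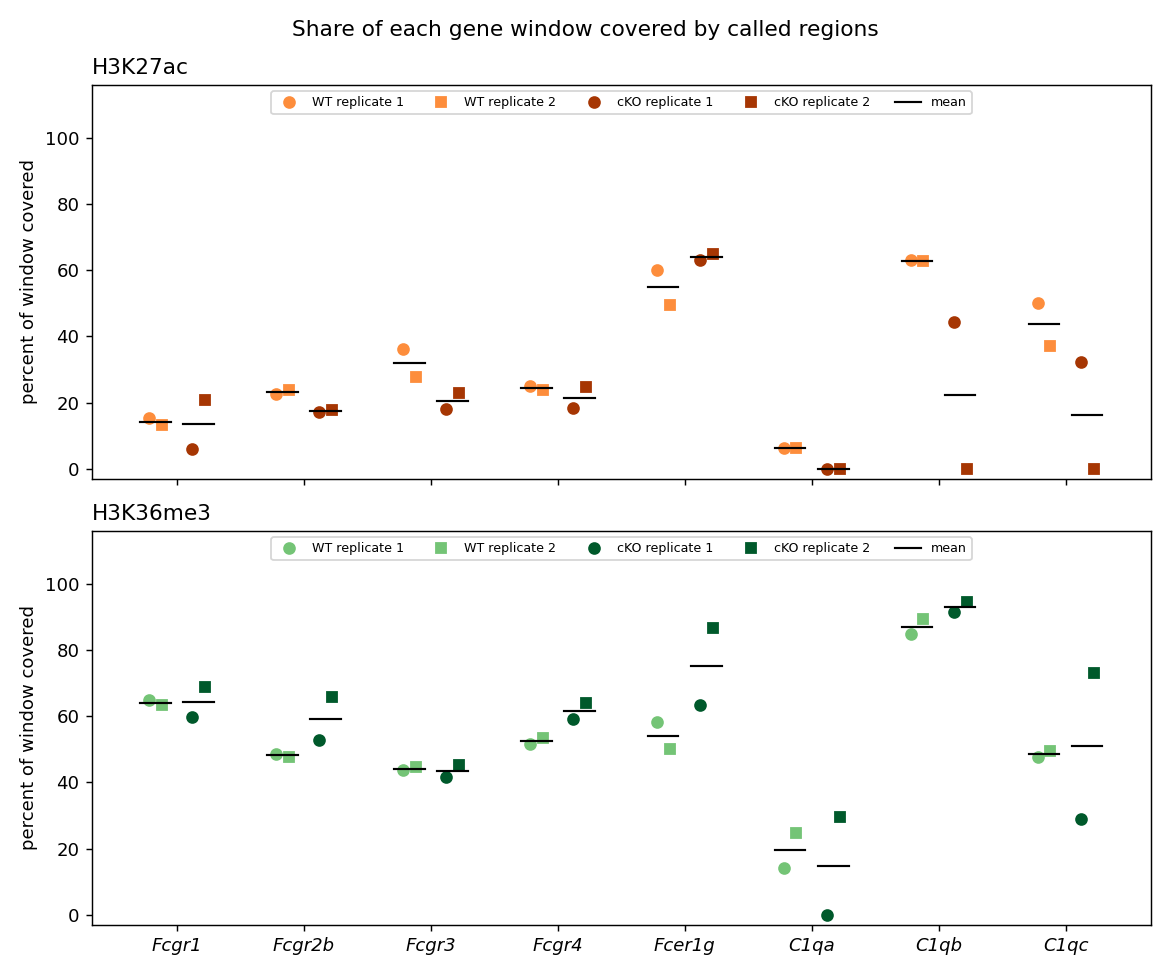
Percent of each gene window covered by called regions for H3K27ac and H3K36me3. Circles are replicate 1, squares replicate 2 and lines the mean of 2 libraries. For H3K27ac cKO replicate 2 lies at 0 at all C1q genes, and for H3K36me3 both cKO libraries lie above both WT libraries at Fcgr2b, Fcgr4, Fcer1g and C1qb.

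**Figure D4:**
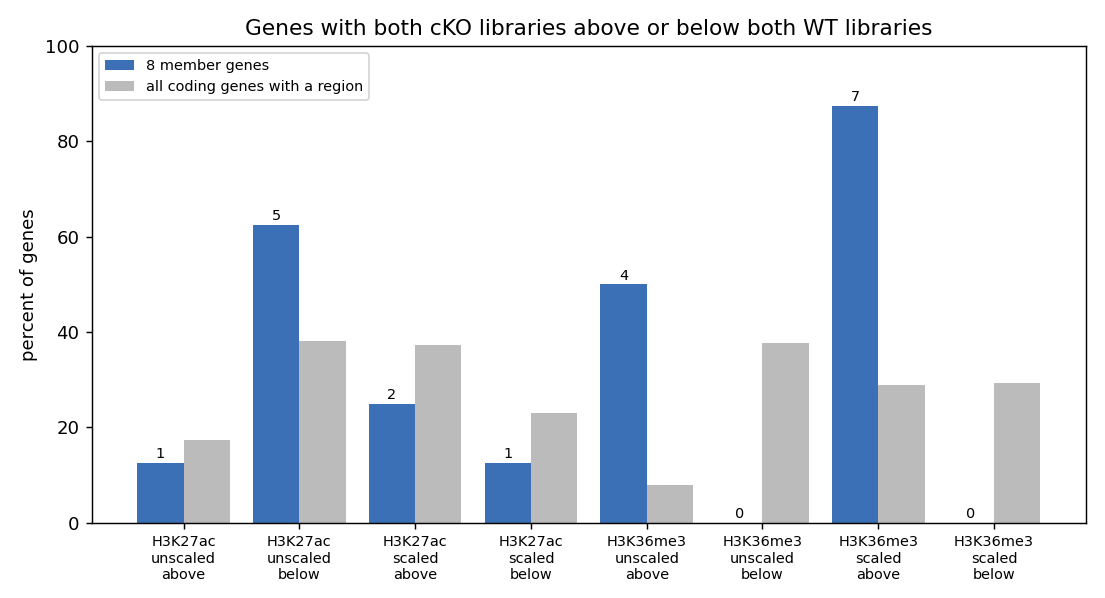
Percent of genes with both cKO libraries above or below both WT libraries, for the 8 genes (blue, with the number of genes on the bar) and all coding genes with a region of the mark (grey), without and with scaling to the covered length over all gene windows. For H3K27ac the order of above and below turns with scaling, and for H3K36me3 it does not turn for the 8 genes. Scaled H3K36me3 lengths of cKO replicate 1 exceed the window at C1qb and Fcer1g.

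Merged over the 4 H3K36me3 libraries, the windows held 11 regions, of which 8 were present in all 4. None was gained, and 1 region upstream of Fcgr3 of 501 bp per WT library was lost. At the level of genes, 0 of 8 had a gained region against 8.47% of genes, and 1 had a lost region against 23.6%.

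H3K36me3 also began nearer the start in cKO at Fcgr4, Fcer1g, C1qb and C1qc. The distance from the start to the nearest H3K36me3 region in the gene body, a measure chosen after the data were seen, was shorter in both cKO libraries than in both WT libraries at 4 of the 7 genes with a region in all 4 libraries. The share was 16.6% over 8493 coding genes, whose distances ran from the outermost start. Both cKO libraries also held more tags than both WT libraries, and the part of tag number in these distances was not tested. At Fcgr4 the distance was 2153 and 1802 bp in WT and 925 and 713 bp in cKO. At Fcer1g it was 3040 and 2928 bp in WT and 2110 and 1014 bp in cKO. The nearest region of cKO replicate 1 there measured 775 bp, and with regions of at least 1 kb its distance was 3537 bp, beyond both WT libraries, which left 3 genes nearer. At C1qb it was 276 and 228 bp in WT, and in both cKO libraries the region ran across the start. At C1qc it was 322 and 1121 bp in WT and 290 and 0 bp in cKO, where WT replicate 1 and cKO replicate 1 nearly coincide. Without cKO replicate 1 the number of genes nearer was 8, but the rule then rests on a single cKO library and is easier to meet. No share over all genes was taken for that rule. Fcgr1, Fcgr2b and Fcgr3 had overlapping values, and C1qa could not be measured in cKO replicate 1. Counted over genes and libraries, a start base lay in an H3K36me3 region 0 times in WT and 3 times in cKO, at C1qb in both libraries and at C1qc in replicate 2. H3K27ac regions held a start base 13 times in WT and 10 times in cKO, and H3.3-HA regions 10 times. No share over all coding genes was taken for start bases, so these counts are descriptions only.

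**Figure D5:**
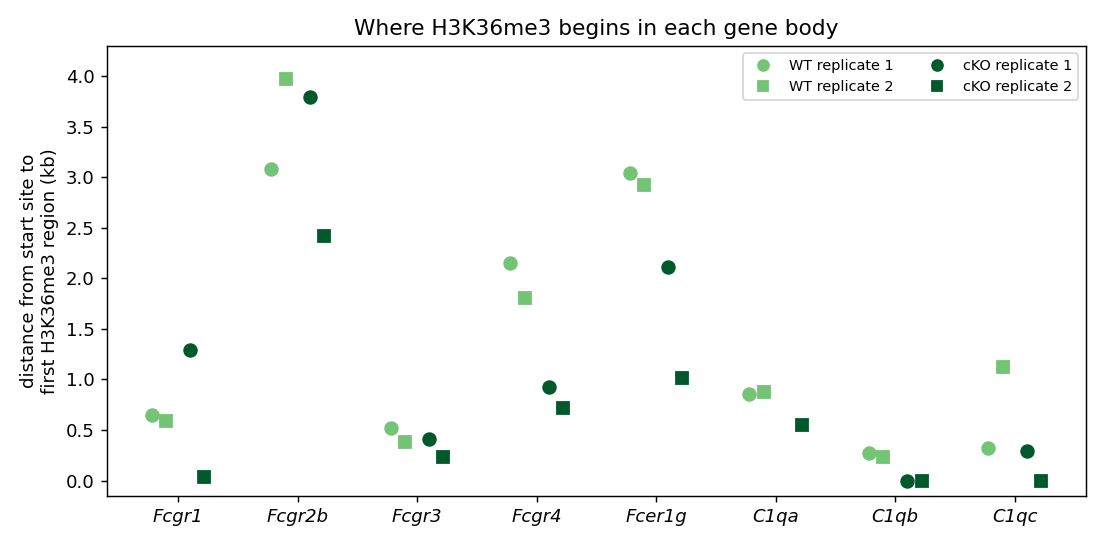
Distance (kb) from the start of the main transcript to the nearest H3K36me3 region in the gene body, for each library. WT libraries are light and cKO libraries dark, and a missing point means no region. Both cKO libraries lie below both WT libraries at Fcgr4, Fcer1g, C1qb and C1qc.

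As a share of mark length, H3.3-HA coincided more with H3K27ac than with H3K36me3 at the Fc receptor genes. There, over the WT and cKO libraries of each mark, H3.3-HA replicate 1 lay under 64.4 to 69.6% of the H3K27ac length. It lay under 21.6 to 28.7% of the H3K36me3 length, and it covered 31.9% of the windows. For replicate 2 the ranges were 74.5 to 79.2% and 40.3 to 45.6%, with 42.1% of the windows covered. At the C1q cluster the shares of H3K27ac were 31.4 to 35.2% for replicate 1 and 35.3 to 50.1% for replicate 2, in the 3 libraries with regions, with 27.6 and 47.3% of the cluster covered. The shares of H3K36me3 were 21.5 to 26.1% and 54.6 to 58.8%. Taken instead as a share of H3.3-HA length at the Fc receptor genes, the ranges of the marks overlapped with WT and cKO libraries together. H3K27ac lay over 45.6 to 62.2% of H3.3-HA replicate 1 and 39.2 to 53.7% of replicate 2. H3K36me3 lay over 34.8 to 57.6% and 49.2 to 69.1%. With the WT libraries alone, H3K27ac lay over 55 to 62.2% of H3.3-HA replicate 1 and H3K36me3 over 34.8 to 38.7%, without overlap. For replicate 2 the WT ranges, 46.7 to 53.7% and 49.2 to 52.8%, overlapped. These shares come from 2 H3.3-HA libraries of other mice and are descriptions without a test. Between marks, 41 and 43% of the WT H3K27ac length and 45.1 and 56.1% of the cKO H3K27ac length over the 8 genes was also covered by H3K36me3 of the library with the same genotype and replicate number, although nothing ties these numbers to the same cells.

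Genes around the receptors were read from lists written from general knowledge. Counts and covers of these lists, and of the macrophage markers below, are unscaled. Both cKO H3K27ac lists cover less of the genome, and how scaling alters these genes was not tested. Of 30 genes of Fc receptor signalling, 12 lay below and 5 above in H3K27ac, against 38.2 and 17.4% of all genes. H3.3-HA was found in both replicates at 27 of the 30, against 44.2% of all genes. Vav3, a guanine nucleotide exchange factor, was covered over 24.1 and 21.8% of its window in WT and 10 and 12% in cKO. Grb2, an adaptor, was covered over 71.1 and 71.5% in WT and 35.4 and 44.6% in cKO, and Gab2, a docking protein, over 23.2 and 24.2% in WT and 9.23 and 10.2% in cKO. Among those above, Csk, an inhibitor of Src kinases, went from 19.8 and 19.4% in WT to 34.9 and 46% in cKO. Ptpn6, the phosphatase SHP-1, went from 39.9 and 31.9% to 42.4 and 59.7%, and Vav1 from 29.7 and 27.5% to 31.6 and 34.3%.

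In H3K36me3 the signalling list had 3 genes above and 5 below, against 7.85 and 37.7% of all genes. Above were Inpp5d, the lipid phosphatase SHIP-1 that acts downstream of Fcgr2b (81 and 79.2% in WT, 84.3 and 94.1% in cKO), Cdc42 (59.9 and 69.1% in WT, 74.1 and 80.9% in cKO) and Lat2 (59.2 and 57.6% in WT, 60.5 and 74% in cKO). Sos1, which activates Ras, was below, at 41.3 and 45.1% in WT and 10 and 33.7% in cKO. Gab2 was below in this mark too, at 26.1 and 28.2% in WT and 14 and 23.9% in cKO, and so was Wasl, at 32.4 and 36.1% in WT and 18 and 30.7% in cKO.

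Of 33 further complement genes, 26 had an H3K27ac region, with 12 below and 4 above, and 22 had an H3K36me3 region, with 4 below and 6 above. Over all genes the shares below and above were 38.2 and 17.4% for H3K27ac and 37.7 and 7.85% for H3K36me3. C5ar1, the C5a receptor, had H3K27ac over 77.2 and 77.2% of its window in WT and 61.1 and 38.1% in cKO. Cr1l, a complement regulator, had 25.3 and 19.4% in WT and 8.42 and 11.4% in cKO, and Itgam, a chain of complement receptor CR3, 26.6 and 18.9% in WT and 11.7 and 18.7% in cKO, so that its libraries nearly touch. Itgax, C9 and C3 lay above at low cover, at most 2.93% in WT. In H3K36me3, C3ar1, the C3a receptor, had 42 and 39.6% in WT and 72.5 and 83.8% in cKO. Lrp1, a C1q-binding scavenger receptor, had 81 and 83.9% in WT and 92.6 and 94% in cKO, and Itgb2, the shared chain of complement receptors, 65.8 and 67.8% in WT and 72.2 and 84.8% in cKO. C1qbp and Itgax were among those below. H3.3-HA was found in both replicates at 21 of the 33 genes, against 44.2% of all genes.

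Of the 10 macrophage markers, 6 lay below and 1 above in H3K27ac and 1 below and 4 above in H3K36me3, and all 10 had H3.3-HA in both replicates, against the same shares over all genes (38.2 and 17.4%, 37.7 and 7.85%, and 44.2%). Mrc1, the mannose receptor, had H3K27ac over 37.9 and 33.7% of its window in WT and 6.38 and 4.55% in cKO, and H3K36me3 over 70.7 and 72.2% in WT and 78.9 and 82.2% in cKO. Msr1, a scavenger receptor, had H3K27ac over 63.3 and 69.7% in WT and 26.6 and 20.1% in cKO, and Adgre1, which encodes F4/80, 10.4 and 5.05% in WT and 1.95 and 1.05% in cKO. Cd68 lay above in both marks, with H3K27ac over 48.7 and 44.8% in WT and 58.7 and 75.2% in cKO, and H3K36me3 over 48.8 and 62% in WT and 100% in both cKO libraries. Csf1r, the receptor that drives macrophage growth, had H3K36me3 over 49.7 and 58.2% in WT and 65.1 and 68.6% in cKO. Cd14 had H3K36me3 over 9.79 and 6.31% in WT and none in cKO.

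For each of the 8 genes, the coding gene with the most similar cover over the 10 libraries was named by the mean absolute difference in percent of window. The closest were Il4ra for Fcgr1 (3.3 points), Blvrb for Fcgr2b (3.85), Ldha for Fcgr3 (4.25) and Tor1a for Fcgr4 (3.1). Psap was closest to Fcer1g (7.03 points), Eps8 to C1qa (2.86), Slc6a6 to C1qb (7.43) and Ech1 to C1qc (8.15). Psap, which encodes prosaposin, had H3K27ac over 57 and 50.6% in WT and 55.1 and 65.4% in cKO, and H3K36me3 over 53.7 and 67% in WT and 81.5 and 84% in cKO. Slc6a6, a taurine transporter, had H3K27ac over 42.7% in cKO replicate 2, the library in which C1qb had none.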

How the data were processed

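The deposited region lists of 10 CUT&RUN libraries were used. The authors aligned paired-end reads to mm10 with Bowtie2 2.3.4.1 in local mode and called regions with HOMER in histone mode for each library, without pooling replicates. Per the file headers, calling used peaks of 500 bp at least 1000 bp apart, a Poisson p of 1e-03, 4-fold enrichment over the IgG control and p of 1e-04 over the control and the local 10000 bp. WT, cKO and H3.3-HA libraries had different controls. The deposited lists give starts and ends in bp, and their score column is constant at 1, so heights could not be compared, and a region missed in a library can differ little in signal. Tag totals were read from the headers.

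Regions of each library were merged on chromosomes 1 to 19, X and Y, and the covered length was measured in each window with Python 3.11.15 and numpy 2.4.6 (GENCODE M21 windows of gene body plus 5 kb upstream). Coverage code was tested on simulated regions. The exact permutation test of WT against cKO per gene was two-sided, and with 2 libraries a group its smallest p is 0.333. A gene was counted above or below when both cKO libraries lay on the same side of both WT libraries, and genes with a region of the mark in any of the 4 libraries were the background. No test on read counts was possible from region lists. The IgG samples have no list and were not analysed here.

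The members and lists were chosen with earlier results of these data known. Named were all 8 members, at most 3 genes per list, mark and direction with the largest non-overlapping difference in covered length, the nearest gene by cover and coding neighbours in a window. Some genes that this rule names are not reported here. The alternatives were the gene body only, 5 kb on both sides, regions of at least 1 kb, lists of equal number, scaled lengths, a replicate block, 25% cover of a merged region and leaving out each library.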

Additional observations from a re-analysis of the deposited data

How the results depend on the processing

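Counts were taken as kept within 1.5 times and joined lengths within 1 SD of the replicates. Of 107 recomputed counts and joined lengths, 85 lay within these limits, 21 moved and 1 reversed. The limits are wide, since the joined H3K36me3 difference of 834 bp without cKO replicate 2 lies within 1 SD of 6917.5 bp. Of 160 recomputed differences at single genes, 18 reversed, 140 kept their direction and 2 came to 0, for H3K27ac at C1qa with regions of at least 1 kb and with lists of equal number. The replicate block is included in the joined lengths and single genes counted here, although it cannot change a difference of means. Changing the window to the gene body moved the joined H3K27ac difference (cKO minus WT) from -9482.5 to -5980.5 bp, the H3K27ac genes above from 1 to 0 and the lost H3K36me3 regions from 1 to 0. It left 6 genes with H3.3-HA in both replicates. Windows with 5 kb on both sides gave 0 H3K27ac genes above. Scaling reversed the joined H3K27ac difference to 2578.8 bp and moved that of H3K36me3 from 6917.5 to 27476.3 bp. The scaled H3K36me3 lengths of cKO replicate 1 exceed the window at C1qb and Fcer1g. Scaling left 2 H3K27ac genes above and 1 below, and 7 H3K36me3 genes above. Regions of at least 1 kb left 3 H3K27ac genes below, 1 lost H3K27ac region and 0 lost H3K36me3 regions. Lists of equal number left 2 H3K27ac genes below and 0 lost H3K27ac regions. The causes were not tested.

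Leaving out a library gave 1 to 2 H3K27ac genes above, 5 to 7 below, 0 to 1 H3K27ac regions gained and 2 to 3 lost. For H3K36me3 it gave 4 to 8 genes above, 0 to 4 below, 0 to 1 regions gained, 1 to 2 lost and 4 to 8 genes whose H3K36me3 began nearer the start. Each 8 came without cKO replicate 1 and the 4 below without cKO replicate 2. Leaving out a library makes these rules easier to meet. For H3K36me3 length, cKO replicate 2 alone lay above both WT libraries at 41.3% of all genes, against 7.85% for both cKO libraries. cKO replicate 1 alone lay below at 77.9%, against 37.7%. The joined difference ranged from -11851.5 to -7113.5 bp for H3K27ac and from 834 to 13001 bp for H3K36me3.

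Single genes reversed as follows. With the gene body only, H3K27ac at Fcgr1 gave 131.5 bp and H3K36me3 at Fcgr3 372.5 bp. With 5 kb on both sides, H3K27ac at Fcer1g gave -1183.5 bp and H3K36me3 at C1qa 284 bp. With regions of at least 1 kb, H3K36me3 at Fcgr3 gave 122 bp. Scaled, H3K27ac gave 633.1 bp at Fcgr1, 657.4 bp at Fcgr2b and 1057.7 bp at Fcgr4, and H3K36me3 2843.4 bp at Fcgr3. Without a library, H3K27ac ranged from -1322.5 to 1059.5 bp at Fcgr1 and from -942.5 to 68.5 bp at Fcgr4, and H3K36me3 from -1534 to 799 bp at C1qa, -1629 to 2013 bp at C1qc, -680 to 736 bp at Fcgr1 and -469 to 212 bp at Fcgr3.

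Replicate numbers are shared by WT and cKO, but nothing says that they pair libraries. Deviations of same-numbered libraries correlated at -0.101 for H3K27ac over 12767 genes and 0.104 for H3K36me3 over 11975. The replicate block leaves the joined differences at -9482.5 and 6917.5 bp and every direction as it was. This is so by arithmetic, since pairing does not alter a difference of means. Its smallest p is 0.5. For H3K27ac, same-numbered pairs, chosen after seeing the data, put 5 genes below and 1 above, and crossed pairs 6 below and 1 above. How far the number of tags, 5365319 to 29988098, limits what was called was not tested.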
